A study of Mus musculus with 6 samples.

Results

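Basement membrane and matrix genes were followed in oligodendrocyte precursor cells (OPC), the dividing and migrating glial cells that later form myelin. The set was a list of 39 genes for laminin and collagen chains, their partners in the basement membrane, and matrix glycoproteins. A member was read from the array's probes that carry its symbol, and its brightest probe over 6 arrays stood for the gene. By this rule 38 of the 39 genes were found, among 28906 genes on the array. The only listed gene without a probe of its symbol was Lamb1. An older name of it, Lamb1-1, labels a single probe that lay below background on all 6 arrays. Total RNA from primary cultures of C57BL/6 mouse pups was hybridised to Illumina bead arrays. The 2 groups were spinal cord OPC (3 samples) and cerebrum OPC (3 samples). The pups were at postnatal days 6 to 8, and all cultures were kept dividing for 7 days with 10 ng/ml PDGF-AA, a mitogen of these cells. No genotype beyond the strain is given in the labels. A sample is a culture from 1 preparation of 3 to 4 pooled pups, so it averages over animals, and each preparation gave a spinal cord and a cerebrum sample with the same number.

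Laminins are trimers of an alpha, a beta and a gamma chain. They polymerise on cell surfaces by binding integrins and dystroglycan. Nidogens, perlecan and agrin tie the laminin sheet to a network of type IV collagen, and together these form a basement membrane. In the central nervous system such membranes surround blood vessels and line the pial surface. Laminin is also a permissive substrate for OPC survival and spreading, and mutations of the laminin alpha 2 chain alter white matter. Tenascins are matrix proteins of the developing brain that act on OPC migration and maturation. Fibrillar collagens are mostly made by fibroblasts.

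Values are log2 probe intensities. Background was read from 1302 probes of olfactory receptor (Olfr) genes, which are not expected in these cells. The background floor was the 95th percentile of these probes, 67.2 to 68.6 in linear intensity, or 6.07 to 6.10 on the log2 scale. The arrays had between 20343 and 21081 probes above it. On the second principal component cerebrum replicate 3 lay at -25.2, the farthest of the 6 arrays, against 18.2 for cerebrum replicate 1. Calls that were lost or gained without an array are given with that value. The number of arrays limits the precision, and the median standard error of a log2 difference was 0.109. Levels of different probes cannot be compared with each other, so genes were compared between samples for the same probe. The sums over cell type markers add probes of different genes, so the brightest probes weigh most. These sums are compared only between samples for the same list, and a share of a sum shows only which probes set it. In bulk cultures fewer expressing cells and less RNA per cell cannot be told apart.

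Part of the set was not above background in cultures of either tissue. In 10 genes every probe lay below the floor on all 6 arrays. These were the laminin genes Lama3, Lamb2 and Lamc3, the nidogen gene Nid1, the fibronectin gene Fn1, the type IV chain gene Col4a5, and the collagen genes Col1a2, Col3a1, Col5a2 and Col6a1. Fn1 was read by 4 probes and Col5a2 by 5, and none of these passed the floor on any array. Lama2 and Lama5 passed on 1 and 2 arrays and were not tested. The other 26 genes passed on at least 3 arrays and were tested, 19 of them on all 6 arrays. Over the whole array 14212 of 28906 genes were tested, a smaller share than 26 of 38. For the dim genes the arrays give only a bound, and no difference between tissues could be measured.

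**Figure D1:**
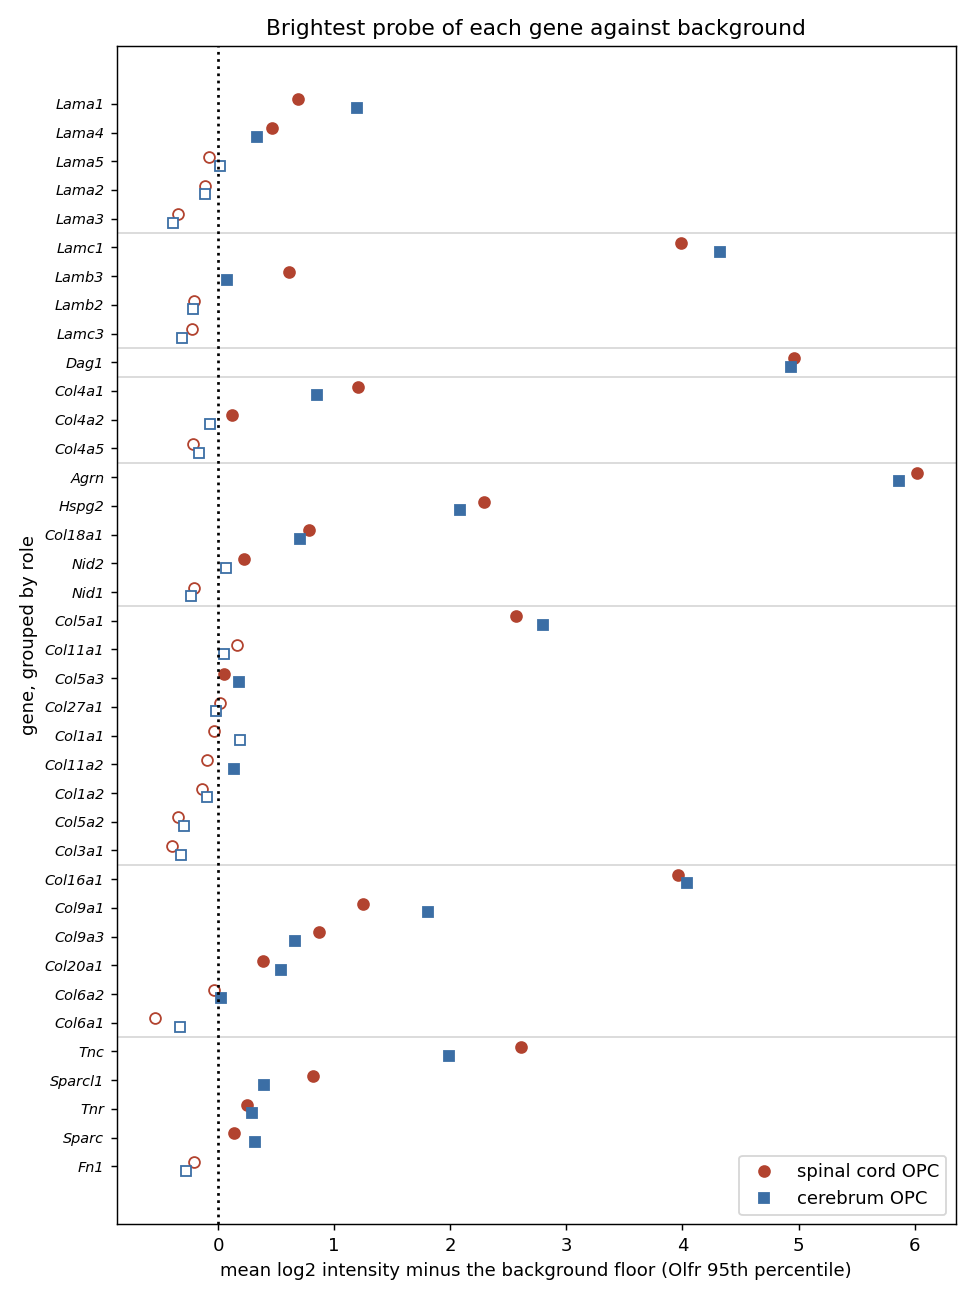
Mean log2 intensity of the brightest probe of 38 genes above the background floor (x axis, log2 units; 0 is the mean floor of that tissue's arrays), for spinal cord OPC (circles) and cerebrum OPC (squares), 3 arrays each. Filled symbols lay above the floor on all 3 arrays of the tissue, and open symbols on fewer. In 12 genes the probe passed on fewer than 3 of the 6 arrays, and distances from the floor are not comparable between genes.

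The cultures carried the markers of their label. All 10 OPC markers were above the floor, among them Pdgfra, Cspg4, Olig2 and Sox10. Their summed intensity ran from 69740.2 to 75923.6 in spinal cord OPC and from 75928.0 to 85641.6 in cerebrum OPC. Gpr17, a receptor of precursors committed to differentiation, fell by 1.37 ± 0.23 in spinal cord OPC (log2, SE, limma adjusted p = 0.00495), and the myelin gene Mbp rose by 1.04 ± 0.11 (0.000111). Markers of cells that make basement membrane or fibrillar collagen were in part at background on all arrays and in part above the floor. For fibroblasts and meninges 6 of 12 markers lay below the floor on all arrays, including Dcn and Lum, and the tested markers were Prrx1, Ptgds and Vim. Their list summed to between 6158.1 and 7155.4 in spinal cord OPC and between 7652.4 and 10173.7 in cerebrum OPC. Vim made up 87.1% to 88.3% of that sum in spinal cord OPC and 89.1% to 90.9% in cerebrum OPC, and the other 11 markers summed to 794.2 to 838.9 in spinal cord OPC and 834.3 to 921.0 in cerebrum OPC. Vim, which glial precursors also express, differed by -0.43 ± 0.12 (0.119, with the block 0.00176), Prrx1 by -0.56 ± 0.15 (0.104, with the block 0.00372) and Ptgds by 0.53 ± 0.13 (0.0531, with the block 0.00545). Of 8 endothelial markers 5 were below the floor on all arrays, among them Pecam1 and Cldn5, and Cdh5, Kdr and Tek were tested. Tek was above the floor on all 3 arrays of cerebrum OPC and on 0 of spinal cord OPC, without overlap. It was lower in spinal cord OPC by at least 1.075-fold (limma adjusted p = 0.309, with the block 0.230). The endothelial sums were 476.8 to 479.0 in spinal cord OPC and 480.0 to 513.2 in cerebrum OPC. Of 8 pericyte and smooth muscle markers 4 were below the floor on all arrays, Pdgfrb included. Acta2, Kcnj8 and Des were tested, Acta2 being above the floor on all 6 arrays, and their differences ran from -0.05 to 0.12. The pericyte and smooth muscle sums were 494.1 to 497.8 in spinal cord OPC and 479.8 to 495.8 in cerebrum OPC. Of 8 astrocyte markers Gfap and Gja1 were below the floor on all arrays, while 5 were tested, namely Slc1a3, Aldoc, Slc1a2, S100b and Aqp4. Aldoc averaged 12.83 in spinal cord OPC and 12.51 in cerebrum OPC, a difference of 0.33 ± 0.10 (0.150, with the block 0.0126). The 8 astrocyte markers summed to 15488.6 to 16915.2 in spinal cord OPC and 13389.9 to 14426.9 in cerebrum OPC. Nearly all of these sums came from Aldoc and Slc1a3, which averaged 13.03 in spinal cord OPC and 12.91 in cerebrum OPC. The next brightest marker, Slc1a2, averaged 7.17 and 6.96. The part of other cell types in the differences below was not tested.

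Between spinal cord and cerebrum OPC, 4 of the 26 tested genes differed at an adjusted p under 0.05, 2 higher and 2 lower in spinal cord OPC. Lamb3 and Sparcl1 were higher, and Lama1 and Col9a1 were lower. Over all 14212 tested genes 2.60% differed, 1.69% higher and 0.908% lower. Adjusted p-values are from limma over all tested probes. With the preparation as a block, which takes out what both samples of a preparation share, 7 of the 26 passed, 4 higher and 3 lower. The added genes were Tnc, Col4a1 and Lamc1. In that fit 5.70% of all tested genes passed, 3.29% higher and 2.41% lower. In 12 of the 26 genes the 3 samples of one tissue all lay above the 3 of the other, 6 in each direction, against 14.9% of all tested genes. An unadjusted limma p under 0.05, without the block, was held by 9 of the 26 and by 1447 of all 14212 tested genes. Over the tested genes the median log2 difference was 0.03, with a range from -0.56 to 0.62, beside a median of -0.0013 over all tested genes. The median size of the difference, whatever its sign, was 0.18 in the 26 genes and 0.08 over all tested genes. Since 12 dim genes were not tested, these counts do not describe the whole set.

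**Figure D2:**
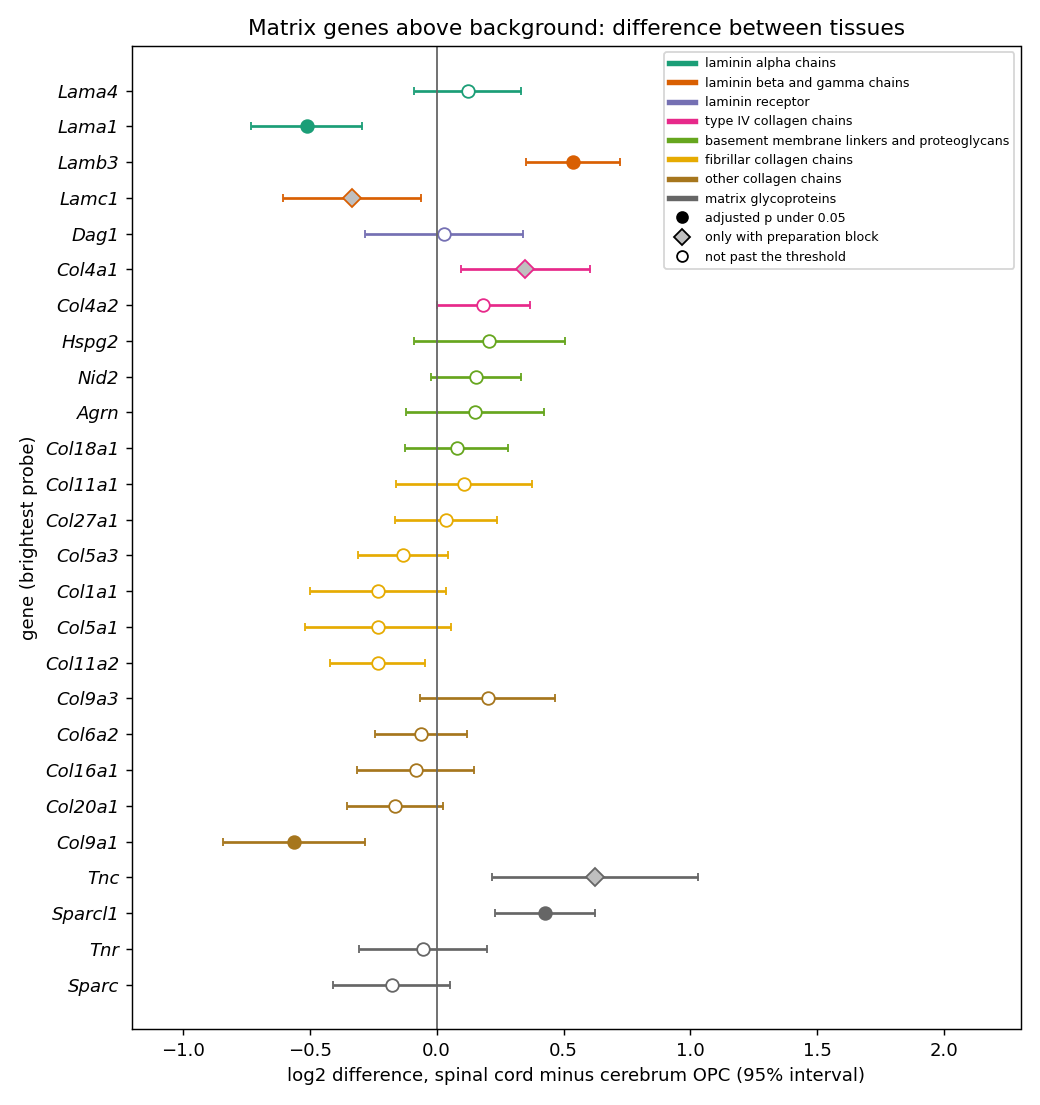
Log2 difference of intensity, spinal cord minus cerebrum OPC (x axis), for the 26 tested genes with 95% intervals from limma (3 arrays a tissue), grouped by role. Filled circles passed an adjusted p of 0.05, grey diamonds only with the preparation as a block, and open circles neither. Lamb3 and Sparcl1 lie right of 0, Lama1 and Col9a1 left of it, and most of the other intervals cross 0.

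Laminin chains moved in both directions. Lama1 encodes the alpha 1 chain, the alpha chain of the earliest embryonic basement membranes. Its log2 intensity was 6.87, 6.73 and 6.71 in spinal cord OPC, against 7.38, 7.27 and 7.19 in cerebrum OPC. All 3 spinal cord samples lay below all 3 cerebrum samples, and the within-preparation differences were nearly equal at -0.51, -0.54 and -0.49. Lama1 fell by 0.51 ± 0.10 in spinal cord OPC (log2, SE, 1.43-fold, adjusted p = 0.0153). Leaving out cerebrum replicate 2 ended the call (0.0698), as did leaving out replicate 2 (0.102) or 3 (0.0998) of spinal cord, with differences between -0.56 and -0.46 over the fits without 1 array. When the Olfr median was subtracted before taking logs, the difference was -0.87. Lama4, the alpha 4 chain of vessel and nerve basement membranes, had 6.54 ± 0.09 in spinal cord OPC and 6.42 ± 0.12 in cerebrum OPC (SD, n = 3 each), a difference of 0.12 with a 95% interval from -0.09 to 0.33. Without cerebrum replicate 1 it was 0.061.

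Lamb3 encodes the beta 3 chain, best known from the laminin trimer that anchors skin epithelium, together with the alpha 3 and gamma 2 chains. It had 6.74, 6.61 and 6.73 in spinal cord OPC, against 6.14, 6.17 and 6.17 in cerebrum OPC. The spinal cord samples were clearly above the cerebrum samples, which sat just above the floor of 6.07 to 6.10. Lamb3 rose by 0.54 ± 0.09 (log2, SE, 1.45-fold, adjusted p = 0.00359) and passed in every fit without 1 array, where the highest adjusted p was 0.0233. Because the cerebrum values lay near background, the size is compressed. With the Olfr median subtracted it was 1.45 on the log2 scale, a size that rests on the small cerebrum intensities left after subtraction. Lama3, the alpha chain of that trimer, was at background in cultures of both tissues.

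The upstream sequence of Lamb3 is shown because it had the smallest adjusted p of the set without the block. The 250 bases before its first annotated start (RefSeq, GRCm38.p6, chr1:193301744-193301993, plus strand) were searched on both strands for the TATA box letters TATAAA, the CCAAT box CCAAT, the GC box GGGCGG, and ACAAT and CTTTGT, letters found in binding sites of SOX factors. Among 32851 such windows of RefSeq, TATAAA was held by 12.4%, CCAAT by 33.8%, GGGCGG by 32.7%, ACAAT by 27.7% and CTTTGT by 16.5%. Capitals mark a match, and none of the motifs contains another.
Lamb3 upstream: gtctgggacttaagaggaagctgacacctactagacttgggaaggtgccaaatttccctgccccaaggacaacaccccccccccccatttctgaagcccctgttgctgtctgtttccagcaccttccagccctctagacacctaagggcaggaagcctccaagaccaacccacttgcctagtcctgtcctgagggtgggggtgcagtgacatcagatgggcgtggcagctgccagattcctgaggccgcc
It held none of the 5, and its GC content was 58.8%, beside a median of 52.4% over all windows.

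Lamc1 encodes the gamma 1 chain, shared by most laminin trimers. Its values were 10.15, 10.13 and 9.94 in spinal cord OPC, against 10.60, 10.42 and 10.19 in cerebrum OPC. The groups did not overlap, and preparation 3 was lowest in both tissues. The difference was -0.33 ± 0.13 (SE, adjusted p = 0.330) and passed with the preparation as a block (0.0302), as did the other Lamc1 probe with -0.36 (0.0285). Without cerebrum replicate 3 and without the block, Lamc1 also passed (-0.44, adjusted p = 0.0275).

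**Figure D3:**
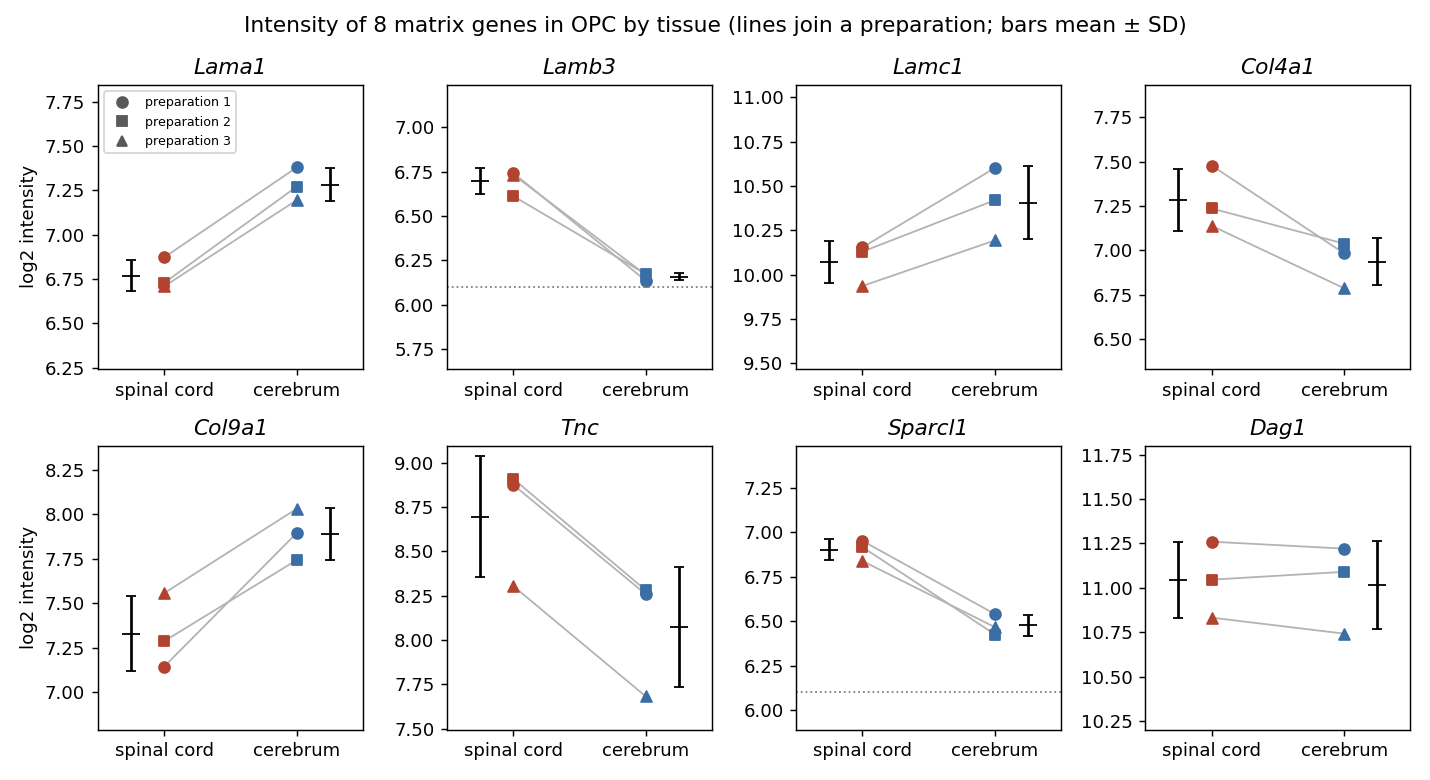
Log2 intensity (y axis, the same span in each panel) of 8 genes in spinal cord OPC (left of each panel) and cerebrum OPC (right), with lines joining samples of a preparation, bars for mean ± SD (n = 3) and a dotted line at the highest floor of the 6 arrays where it falls inside the panel. Lama1, Lamc1 and Col9a1 run upward to cerebrum in all 3 preparations, Lamb3, Col4a1, Tnc and Sparcl1 downward, and Dag1 stays nearly level.

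Dag1, the dystroglycan gene, encodes the main non-integrin laminin receptor. It had 11.26, 11.05 and 10.83 in spinal cord OPC, against 11.22, 11.09 and 10.74 in cerebrum OPC. The order of the 3 preparations was the same in both tissues and the groups overlapped. The difference was 0.03 (95% interval -0.28 to 0.34, adjusted p = 0.989), and its sign turned without cerebrum replicate 3 (-0.11) or spinal cord replicate 1 (-0.08).

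Type IV collagen chains build the network of the basement membrane, and the alpha 1 and alpha 2 chains combine into its common trimer. Col4a1 had 7.48, 7.24 and 7.14 in spinal cord OPC, against 6.98, 7.04 and 6.79 in cerebrum OPC. The groups did not overlap. The difference of 0.35 ± 0.12 (SE) did not pass (adjusted p = 0.236), and passed with the preparation as a block (0.0407). That call was lost when cerebrum replicate 3 was also left out, a fit chosen after seeing the data (0.0536). With the Olfr median subtracted it was 0.57. Col4a2 had 6.26, 6.18 and 6.17 in spinal cord OPC, against 6.08, 6.06 and 5.91 in cerebrum OPC. Its cerebrum samples lay at or below the floor on 2 of 3 arrays, and its difference of 0.18 ± 0.08 did not pass in either fit (adjusted p = 0.330 with the block). In RefSeq's GRCm38.p6 table the genes start 21 bases apart on opposite strands of chromosome 8, Col4a1 at position 11312826 on the minus strand and Col4a2 at 11312805 on the plus strand.

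Of 4 tested linkers and proteoglycans 0 passed in limma on the brightest probe, with or without the block. An unadjusted p under 0.05 was held by 0 of the 4, beside 1447 of all 14212 tested genes. Agrn, the agrin gene, known for clustering acetylcholine receptors at the neuromuscular junction, had a difference of 0.15 (95% interval -0.12 to 0.42). It ran from 0.044 without spinal cord replicate 2 to 0.27 without spinal cord replicate 3. Nid2, a nidogen that joins laminin to type IV collagen, had 0.15 ± 0.08 (SE, adjusted p = 0.623), and its samples did not overlap between the tissues. Col18a1, whose product carries heparan sulfate and releases endostatin, had 0.08 (-0.12 to 0.28), and 0.039 without cerebrum replicate 1.

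Hspg2 encodes perlecan, the large heparan sulfate proteoglycan of basement membranes, and its 3 probes disagreed. The brightest had 8.27, 8.35 and 8.52 in spinal cord OPC, against 8.01, 8.03 and 8.47 in cerebrum OPC, a difference of 0.21 ± 0.14 (SE, adjusted p = 0.765). Here the groups overlapped, through cerebrum replicate 3, without which the difference was 0.36. The second probe had 7.71, 7.73 and 7.77 in spinal cord OPC, against 8.18, 7.96 and 8.14 in cerebrum OPC, a difference of -0.36 ± 0.11 (0.152, with the block 0.0322). The third had 7.35, 7.40 and 7.61 in spinal cord OPC, against 7.98, 7.92 and 7.87 in cerebrum OPC, and fell by 0.47 ± 0.11 (0.0422, with the block 0.00625). In these probes every spinal cord sample lay below every cerebrum sample, the opposite side from the brightest probe. The call of the third probe was lost on leaving out each array other than cerebrum replicate 3, with adjusted p of 0.109 (cerebrum replicate 1), 0.167 (cerebrum replicate 2), 0.226 (spinal cord replicate 1), 0.214 (spinal cord replicate 2) and 0.0559 (spinal cord replicate 3). It also ended without the filter on dim probes (0.0506) and with the Olfr median subtracted (0.0815). With the mean of the 3 probes the gene's difference was -0.21 (adjusted p = 0.478). The direction for Hspg2 is therefore not settled by this array.

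**Figure D4:**
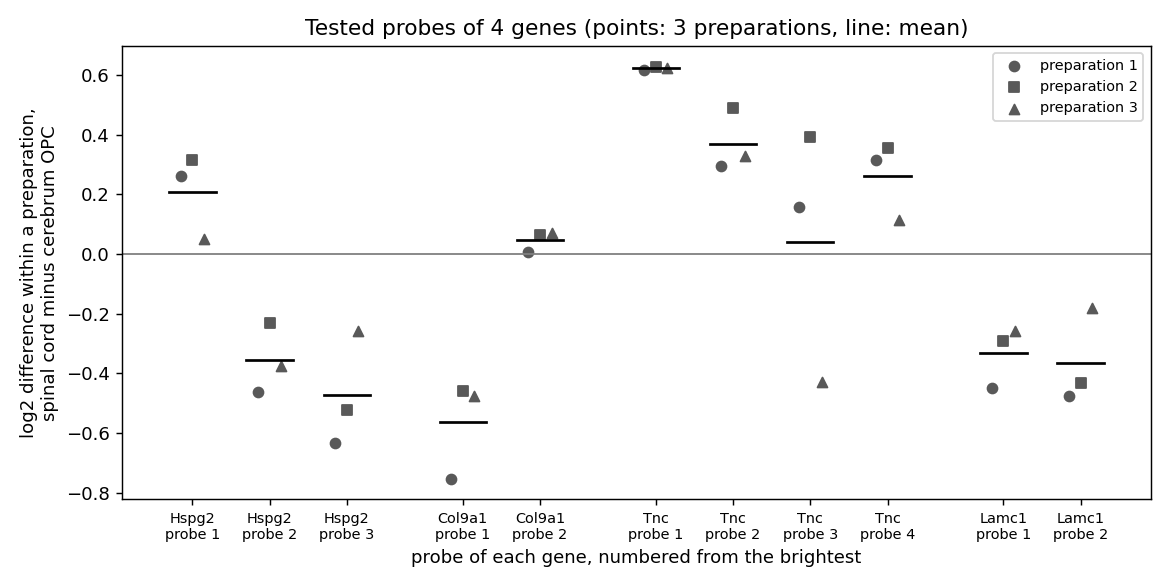
Log2 difference within each of 3 preparations, spinal cord minus cerebrum OPC (y axis), for each tested probe of Hspg2, Col9a1, Tnc and Lamc1, numbered from the brightest (x axis), with a line at the mean. Points of Hspg2 lie above 0 for probe 1 and below 0 for probes 2 and 3, Col9a1 differs between its probes, Tnc probe 1 is nearly constant over preparations, and both Lamc1 probes lie below 0.

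Of the fibrillar collagen chains, which assemble into banded fibrils, 6 of 9 were tested and 0 passed in limma with or without the block. At an unadjusted p under 0.05 there was 1, Col11a2, beside 1447 of all 14212 tested genes. The largest size was that of Col11a2, a cartilage chain, with 5.88, 5.98 and 6.10 in spinal cord OPC, against 6.24, 6.24 and 6.17 in cerebrum OPC. The groups did not overlap, while 2 of the spinal cord values lay below the floor, and the difference was -0.23 ± 0.09 (SE, adjusted p = 0.307). Col5a1, whose chain regulates the width of fibrils, had 8.65 ± 0.07 in spinal cord OPC and 8.88 ± 0.25 in cerebrum OPC (SD, n = 3 each), a difference of -0.23 with an interval from -0.52 to 0.06. It ran from -0.37 without cerebrum replicate 3 to -0.13 without cerebrum replicate 1. Without cerebrum replicate 3 and with the preparation as a block, a fit chosen after seeing the data, Col5a1 passed at -0.36 (adjusted p = 0.0227). Col1a1, a chain of the fibroblast collagen type I, was above the floor on 3 of 6 arrays and its partner Col1a2 on 0. Col5a3, Col11a1 and Col27a1 lay near the floor, and their differences ran from -0.13 to 0.11.

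Of the other collagens Col9a1 passed. Its chain belongs to type IX collagen, which coats the surface of other collagen fibrils and is best known from cartilage. Col9a1 had 7.14, 7.29 and 7.56 in spinal cord OPC, against 7.90, 7.74 and 8.03 in cerebrum OPC. Every spinal cord sample lay below every cerebrum sample, and preparation 3 was the highest in both tissues. Col9a1 fell by 0.56 ± 0.13 in spinal cord OPC (log2, SE, 1.48-fold, adjusted p = 0.0389, with the block 0.00101). Leaving out replicate 1 or 2 of cerebrum (0.0728 and 0.0686) or of spinal cord (0.213 and 0.195) ended the call, and so did subtracting the Olfr median (-0.78, adjusted p = 0.0861). The second tested probe of the gene had 6.33 ± 0.10 in spinal cord OPC and 6.28 ± 0.12 in cerebrum OPC (SD, n = 3 each), a difference of 0.05 ± 0.09 (SE, adjusted p = 0.972). With the mean of both probes the difference was -0.26 (0.174).

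Col9a1 has 2 annotated starts, which lie 17593 bases apart, and the sequence before each is shown because the gene's probes differ. Which transcript a probe reads is not stated in the annotation columns used. The first window is chr1:24177360-24177609 and the second chr1:24194953-24195202, both on the plus strand (RefSeq, GRCm38.p6). Capitals mark the motif letters named above.
Col9a1 first start: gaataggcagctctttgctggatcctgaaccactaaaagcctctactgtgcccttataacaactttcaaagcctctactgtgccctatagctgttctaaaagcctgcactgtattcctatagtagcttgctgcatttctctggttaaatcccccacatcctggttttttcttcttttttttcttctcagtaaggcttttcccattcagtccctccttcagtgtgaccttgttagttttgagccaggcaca
Col9a1 second start: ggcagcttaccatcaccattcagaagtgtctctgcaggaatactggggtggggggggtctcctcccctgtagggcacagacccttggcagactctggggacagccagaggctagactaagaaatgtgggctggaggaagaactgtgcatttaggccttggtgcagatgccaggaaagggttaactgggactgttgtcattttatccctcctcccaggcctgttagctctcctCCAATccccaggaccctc
The first window held none of the 5 motifs and had a GC content of 43.6%. The second held 1 CCAAT and had a GC content of 56.0%.

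Col9a3, whose chain combines with that of Col9a1 in type IX collagen, had 7.13, 6.70 and 7.01 in spinal cord OPC, against 6.84, 6.81 and 6.60 in cerebrum OPC. The groups overlapped, and the difference was 0.20 ± 0.12 (SE, adjusted p = 0.724). It ran from 0.11 without spinal cord replicate 1 to 0.32 without spinal cord replicate 2. Col9a2, the third chain gene and not on the list, had -0.25 ± 0.11 (0.489). Col16a1, which encodes a related fibril-associated chain, had 10.04 ± 0.09 in spinal cord OPC and 10.12 ± 0.08 in cerebrum OPC (SD, n = 3 each), with an interval of the difference from -0.31 to 0.15. Col20a1 differed by -0.16 ± 0.09 (SE, adjusted p = 0.639) with no overlap between the tissues. Col6a2, a chain of the beaded filaments of type VI collagen, had -0.06 ± 0.08 near the floor (-0.0031 without spinal cord replicate 1), and Col6a1 was at background.

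Of the matrix glycoproteins Sparcl1 passed. It encodes hevin, a secreted relative of SPARC that astrocytes use to promote synapse formation. Sparcl1 had 6.95, 6.92 and 6.84 in spinal cord OPC, against 6.54, 6.42 and 6.47 in cerebrum OPC. All spinal cord samples were above all cerebrum samples, and Sparcl1 rose by 0.43 ± 0.09 (log2, SE, 1.34-fold, adjusted p = 0.0247, with the block 0.00677). Leaving out cerebrum replicate 2 ended the call (0.140), as did leaving out replicate 1 (0.122), 2 (0.119) or 3 (0.0630) of spinal cord, and with the Olfr median subtracted the difference was 0.89. Sparc itself, whose product binds collagen, had -0.18 ± 0.11 (0.711) near the floor, and -0.082 without cerebrum replicate 3. Tnr, the tenascin R gene of OPC and oligodendrocytes, had -0.05 (95% interval -0.31 to 0.20).

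Tnc encodes tenascin C, a many-armed glycoprotein of the developing nervous system. It had 8.87, 8.91 and 8.30 in spinal cord OPC, against 8.26, 8.28 and 7.68 in cerebrum OPC. Preparation 3 was lowest in both tissues, and the groups did not overlap, although the spinal cord sample of that preparation lay close to the highest cerebrum samples. The differences within the 3 preparations were 0.62, 0.63 and 0.62. Without the block the difference of 0.62 ± 0.19 (SE) did not pass (adjusted p = 0.158), except when spinal cord replicate 3 was left out (0.82, adjusted p = 0.0438). With the preparation as a block the standard error was 0.09 and Tnc passed (0.000173). The second probe had a difference of 0.37 (0.542, with the block 0.0233). The third probe, near the floor, had 0.04 with opposite signs between preparations, and the fourth did not pass in either fit (0.255, with the block 0.124) and was not above background in cerebrum OPC.

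The sequence before the first annotated Tnc start is shown as that of the gene with the smallest adjusted p under the block (RefSeq, GRCm38.p6, chr4:64047016-64047265, minus strand, printed in the direction of the gene).
Tnc upstream: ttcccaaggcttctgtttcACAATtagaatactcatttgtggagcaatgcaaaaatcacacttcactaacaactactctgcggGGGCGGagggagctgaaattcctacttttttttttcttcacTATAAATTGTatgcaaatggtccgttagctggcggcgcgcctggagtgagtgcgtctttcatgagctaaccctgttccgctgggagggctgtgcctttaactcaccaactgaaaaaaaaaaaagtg
It held 1 TATAAA, 1 GGGCGG and 2 ACAAT, the second read on the other strand and sharing 1 letter with TATAAA. Its GC content was 44.8%. A match is a description of these letters only.

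Receptors that bind these ligands were followed in a list of 16 integrin subunits, of which 9 were tested. Of these 4 rose in spinal cord OPC and 0 fell, with the same counts under the block. Over all tested genes 2.60% passed without the block and 5.70% with it. The list's median difference was 0.20 beside -0.0013 over all tested genes. Itga9 pairs with beta 1 to bind tenascin C and osteopontin. Its brightest probe, which carries the clone name 6720458D17Rik on the array, had 9.43, 9.35 and 9.47 in spinal cord OPC, against 7.88, 7.81 and 7.89 in cerebrum OPC. It rose by 1.55 ± 0.10 (log2, SE, adjusted p = 1.75e-06). A second Itga9 probe passed the floor on 1 array and was not tested.

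Itgb5, whose subunit pairs with alpha v to bind vitronectin, was higher by at least 1.40-fold in spinal cord OPC (6.57 ± 0.26 in spinal cord OPC and 5.86 ± 0.01 in cerebrum OPC, SD, n = 3 each, adjusted p = 0.00439), and was not above background in cerebrum OPC. The bound sets the spinal cord mean against the floor. Itga8, a partner of beta 1 for fibronectin, tenascin C and nephronectin, rose by 0.59 ± 0.12 (0.0181). Itga3, a laminin receptor subunit, rose by 0.40 ± 0.09 (0.0293), with 6.53 ± 0.07 in spinal cord OPC and 6.13 ± 0.08 in cerebrum OPC, where 2 of 3 samples were above the floor. Itga8 lost its call without cerebrum replicate 1 (0.0515) or any spinal cord replicate (0.0726, 0.0801 and 0.103 for replicates 1 to 3). Itga3 lost it without cerebrum replicate 1 (0.115) or 2 (0.123) or spinal cord replicate 1 (0.113), 2 (0.0698) or 3 (0.137), and in the fit with no intensity trend (0.0541). With the Olfr median subtracted the Itga3 difference was 1.14. That size rests on the small cerebrum intensities left after subtraction, of which replicate 1 was raised to the lower limit of 16.

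Other matrix glycoproteins had 1 gene higher and 1 lower of 20 tested, and 2 and 1 with the block. Over all tested genes 1.69% were higher and 0.908% lower, and 3.29% and 2.41% with the block. Hmcn1, which encodes the basement membrane protein hemicentin, was higher by at least 1.26-fold in spinal cord OPC (adjusted p = 0.0112), with cerebrum OPC not above background. Smoc1, a secreted calcium-binding relative of SPARC, fell by 0.51 ± 0.12 (0.0492), with 10.59 ± 0.16 in spinal cord OPC and 11.09 ± 0.15 in cerebrum OPC (SD, n = 3 each). Hmcn1 lost its call without cerebrum replicate 2 (0.0731) or spinal cord replicate 2 (0.0622). Smoc1 lost it in every fit without 1 array except that without cerebrum replicate 3, with adjusted p of 0.128 and 0.0686 without cerebrum replicates 1 and 2, and 0.0588, 0.287 and 0.198 without spinal cord replicates 1 to 3. Its call also ended without the filter on dim probes (0.0667), with the stricter floor (0.0511) and with the Olfr median subtracted (0.0649). The other chains of laminins and collagens outside the list had 0 limma calls among 5 tested of 26 on the array, with or without the block. At an unadjusted p under 0.05 there were 3 of the 5, beside 1447 of all 14212 tested genes. Among these 3, Col19a1 differed by -0.27 ± 0.12. Col12a1 was not above background in spinal cord OPC, and was lower there by at least 1.11-fold (adjusted p = 0.367).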

How the data were processed

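Total RNA of 6 cultures was turned into biotinylated cRNA for Illumina arrays, per the labels' protocols. The submitters' processing notes list GenomeStudio 2011.1. The deposited values are linear intensities per probe. Every array ran from 36.5 to 49682 with an upper quartile of 162.7, so the authors' values were equalised between arrays by a method not given in the sources used here, and Olfr medians of 52.3 to 53.0 show that background remained. A further deposited table had 12 columns of per-sample values whose names match no sample, and only its symbols and annotation were read. Of its symbols 16219 were current, 5718 were synonyms of a single gene in RefSeq's GRCm38.p6 table and were updated (except for members), and 8932 had no match and were kept as they stand.

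A probe was tested if above the floor on at least 3 arrays (20988 of 45281 probes). The log2 intensities were fitted with limma 3.58.1 in R 4.3.3 (eBayes, trend by intensity) as spinal cord over cerebrum, and p-values of all tested probes were adjusted together by Benjamini-Hochberg. The fit was tested on simulated data with changes larger than any in the set and with no shared preparation. That test does not cover differences of the size seen in the set. The members, gene lists and naming rule were chosen with earlier results of these data known. Values are given for every member past the threshold with or without the block, for the largest difference in each role, for up to 4 called genes of each further list (or its 2 largest differences), and for up to 2 genes of a cell type list. Some genes that this rule names are not reported here. Genes outside this rule are named where a count or comparison needed them. A bound sets the brighter tissue's mean against, per array, the higher of the floor and the dim probe's own value.

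The design text says that replicate numbers mark a shared preparation. After the tissue means were taken out, samples of preparations 1 to 3 correlated across probes at 0.53, 0.21 and 0.50, and the numbers were taken as pairs. Alternatives were the block, other normalisation, centring, background handling, filters, no trend, the mean of a gene's probes and leaving out each array. Where the Olfr median was subtracted, remainders below 16 in linear intensity were set to 16.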

Additional observations from a re-analysis of the deposited data

How the results depend on the processing

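With the preparation as a replicate block 4 genes of the set were higher (2 without it) and 810 of all tested genes passed (369 without it). The block with cerebrum replicate 3 left out, chosen after seeing the data, gave 3 higher and 4 lower in the set (4 and 3 with the block alone), 1066 of all genes and 12 genes of the further matrix lists (6 in the reported fit). Lower genes numbered 1 with the mean of a gene's probes and 1 with the Olfr median subtracted, and the further lists had 3 calls with the stricter floor. Under that floor Itgb5 and Hmcn1 were not tested, while Smoc1 was tested and did not pass. Without 1 array each, the set had 1 to 2 higher and 0 to 3 lower, all genes 218 to 650, and the further lists 2 to 8. None of the set was lower without cerebrum replicate 2 or without spinal cord replicate 2, and 650 of all genes passed without cerebrum replicate 3. Quantile normalisation and centring left the counts of the set at 2 and 2. The deposited arrays were already equalised, so these fits hardly change the values and cannot show whether the counts depend on normalisation. Normexp and no trend also left the counts at 2 and 2. Signs turned for genes that did not pass: Hspg2 with the mean of its probes (-0.21), Tnr without cerebrum replicate 2 (0.082, range -0.16 to 0.082 without 1 array), Dag1 without cerebrum replicate 3 (-0.11, and -0.0025 with the block as well) or spinal cord replicate 1 (-0.08; range -0.11 to 0.14), Col11a1 without cerebrum replicate 3 under the block (-0.10) or without spinal cord replicate 3 (-0.0095; range -0.0095 to 0.22), and Col27a1 without cerebrum replicate 1 (-0.022) or spinal cord replicate 1 (-0.01), with a range of -0.022 to 0.11. The causes of these changes were not tested. Differences of genes near the floor are understated, and 12 genes of the set were too dim to compare.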

Other observations

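Further lists held enzymes that act on these matrix proteins and receptors other than integrins, beside a share of 2.60% called over all tested genes (5.70% with the block). An unadjusted limma p under 0.05 was held by 1447 of all 14212 tested genes. Of 15 tested genes for collagen folding and modification 0 passed in limma (2 at an unadjusted p under 0.05), and 1 passed with the preparation as a block. This was P3h2, which hydroxylates prolines of type IV collagen and is labelled Leprel1 on the array, with 0.43 ± 0.12 (log2, SE, adjusted p = 0.106, with the block 0.00801). It had 7.13, 6.88 and 6.77 in spinal cord OPC, against 6.59, 6.58 and 6.31 in cerebrum OPC, with no overlap. Colgalt2, a collagen galactosyltransferase, had 0.26 ± 0.09 (0.290). Of 5 tested genes for collagen processing and crosslinking 0 passed in limma with or without the block (1 at an unadjusted p under 0.05), with Bmp1, the procollagen C-proteinase, at -0.25 ± 0.10 (0.383) and the peroxidasin gene Pxdn at 0.09 ± 0.12 (0.948).

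Of 11 tested genes for the sugar chain by which dystroglycan binds laminin 0 passed in either limma fit, and 0 had an unadjusted p under 0.05. Differences ran from -0.11 to 0.12, with Pomgnt1 at 0.12 ± 0.10 (SE, adjusted p = 0.871). Of 9 tested genes of other matrix receptors, a list of syndecans, discoidin receptors, Cd44, Bcam and dystrophin-complex genes, 0 passed in either fit and 0 had an unadjusted p under 0.05, with Sdc2 at 0.20 ± 0.11 (0.651) and Sgcb at 0.18 ± 0.15 (0.864). Other cell type lists also had 0 calls in both fits and 0 genes at an unadjusted p under 0.05. These were microglia (Csf1r 0.09 ± 0.11, Cd68 -0.07 ± 0.08), neuron (Map2 0.20 ± 0.11, Nefm -0.16 ± 0.12) and Schwann cell markers (Egr2 -0.25 ± 0.23, Pmp22 0.13 ± 0.11).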
